A study of Saccharomyces cerevisiae with 10 samples.

Results

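The seripauperin (PAU), DAN and TIR genes of the yeast Saccharomyces cerevisiae encode serine-rich and related mannoproteins of the cell wall. The genes were found by name: PAU followed by a number, DAN1 to DAN4 or TIR1 to TIR4, as the current or an older symbol of a row on the array. This gave 29 of the 6277 rows, of which 23 are PAU genes, 2 are DAN genes (DAN1 and DAN4) and 4 are TIR genes (TIR1 to TIR4). DAN2 and DAN3 are older names of PAU23 and PAU24, and both were counted as PAU genes. PAU9 was not analysed here.

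The strain DJ28 was compared with the strain FY23 on 10 spotted arrays with 2 dyes, each array holding both strains. The series title describes a mutant with a constitutively active Ras/cAMP pathway, and the labels give PDE2, the gene of the high-affinity cyclic AMP phosphodiesterase, as a keyword. DJ28 was in Cy3 and FY23 in Cy5 on arrays 1 to 5, and DJ28 was in Cy5 and FY23 in Cy3 on arrays 6 to 10. The genotypes, the medium, the temperature, the oxygen supply and the number of cultures are not given in the sources used, and the p-values reflect the spread over arrays alone, which may be technical.

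Values below are log2 ratios, DJ28 over FY23, from arrays centred on their medians. The deposited ratio does not say which dye is the numerator. It was taken as Cy5 over Cy3, the direction in which PDE2 was lower in DJ28, by 3.89-fold. The log2 difference of PDE2 was -1.96 ± 0.168 (SE, adjusted p = 0.00153 in limma), below 0 on 8 of 8 replicates. The direction was chosen with this PDE2 value known, so the value does not test it. Under the opposite direction every sign would turn. Arrays 6 and 7 were nearly identical (r = 0.988, where the next closest pair had 0.694) and were averaged, which left 9 replicates. Arrays 1 and 2 were sparse, with values for 12 and 18 of the 29 genes, while arrays 3 to 10 held 27 to 29 of them. Of 8 haploid mating-type markers tested 0 passed limma's test, where 0.549% of all genes did. The 5 of a cells had differences from 0.01 to 0.60. Of these, 3 were higher at an unadjusted p under 0.05 in limma, against 5.96% of all genes, though each had replicate values of both signs. The 3 of alpha cells had differences from -0.16 to 0.00. Of these, 0 were higher or lower at that level, against 5.96% and 7.39% of all genes.

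Most wall mannoproteins of this kind are switched on when oxygen is short or the temperature falls. In aerobic cells, heme-dependent repressors such as Rox1 keep many anaerobic genes off, and the sterol-responsive activator Upc2 turns DAN, TIR and PAU genes on when oxygen, and with it sterol synthesis, is lacking. DAN and TIR proteins then take the place of the wall proteins Cwp1 and Cwp2, and TIR1 and TIR2 are also known as cold-shock genes. The PAU genes are the largest of these families, most of them lie near chromosome ends, and their coding sequences are nearly the same, so a spot of 1 PAU gene can bind messenger RNA of others. Values of single PAU genes are therefore uncertain, and the PAU rows are not independent measurements.

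No gene of the 3 families passed the test between the strains, but the PAU genes lay on 1 side of 0. Of the 29 genes 27 had at least 3 replicate values in each dye orientation and were tested, 21 of them PAU genes. The differences of the tested PAU genes were above 0 for 21 of 21, with a median of 0.23 (1.17-fold) and a range from 0.05 to 0.51. The 6 DAN and TIR genes divided evenly, with 3 above 0 and 3 below, a median of 0.02 and a range from -0.23 to 0.10. Over the 5642 genes or unnamed rows tested, 56.1% of differences were above 0, the median was 0.03 and the middle 50% lay between -0.11 and 0.16.

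In limma's moderated test, with Benjamini-Hochberg adjustment over all genes, 0 of the 27 genes passed at an adjusted p under 0.05, where 0.549% of all genes did. The lowest adjusted p was 0.232, that of PAU6. At an unadjusted p under 0.05, 9 of 21 PAU genes were higher in DJ28, against 5.96% of all genes, and 0 of the 6 DAN and TIR genes were. On the lower side 0 of the 27 genes reached that level, against 7.39% of all genes. Precision is limited with 9 replicates: the median standard error was 0.114 for the 27 differences and 0.131 over all genes tested.

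**Figure D1:**
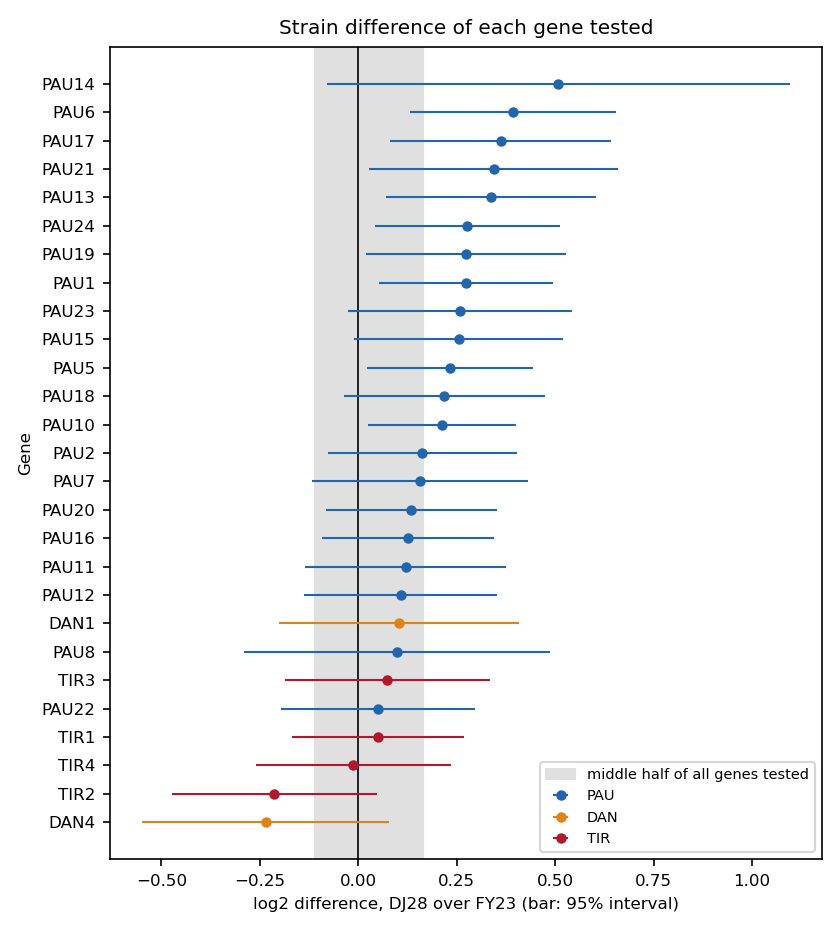
Log2 difference of DJ28 over FY23 (x axis) for each of the 27 genes tested, sorted by size, with 95% intervals; the grey band is the middle 50% of all genes tested, from -0.11 to 0.16. All 21 PAU points lie above 0 and 9 of their intervals do not reach 0, while the 6 DAN and TIR points lie on both sides.

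The 4 PAU genes with the largest differences were PAU14 (YIL176C), PAU6 (YNR076W), PAU17 (YLL025W) and PAU21 (YOR394W). The individual functions of PAU genes are little known. PAU6 had ratios of 1.03, 0.81, 0.11, 0.14 and 0.28 on arrays 1 to 5, and of 0.61, 0.10, 0.34 and 0.20 on the mean of arrays 6 and 7 and on arrays 8, 9 and 10. All 9 values were above 0, and the sparse arrays 1 and 2 were the highest. Its difference was 0.39 ± 0.119 (SE; 1.31-fold; adjusted p = 0.232 in limma), and 0.24 without arrays 1 and 2.

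PAU14 had the largest difference and the largest error of the PAU genes, 0.51 ± 0.268 (SE; adjusted p = 0.43 in limma). Its ratios were 2.87, -0.12, -0.16, 0.10 and 0.44 on arrays 1 to 5, and 0.70, 0.35, 0.20 and 0.30 on the replicates with DJ28 in Cy5. Array 1 alone stood far above the rest, and without it the difference was 0.23.

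PAU17 was not measured on arrays 1 and 2 and had ratios of 0.10, 0.11 and 0.29 on arrays 3 to 5, with 1.08, 0.37, 0.30 and 0.47 on the replicates with DJ28 in Cy5. All 7 values were above 0, with the mean of arrays 6 and 7 highest. Its difference was 0.36 ± 0.125 (SE; adjusted p = 0.292 in limma). PAU21 had ratios of -0.16, 0.01, -0.60, 0.09 and 0.37 on arrays 1 to 5 and of 1.38, 1.03, 0.07 and 0.51 on the replicates with DJ28 in Cy5. The positive values of PAU21 thus came mainly from the arrays with DJ28 in Cy5, and its difference was 0.34 ± 0.144 (SE; adjusted p = 0.345 in limma).

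Beside PAU6, PAU17 and PAU21, the genes with an unadjusted p under 0.05 were PAU13 at 0.34, PAU24 at 0.28, PAU1 and PAU19 at 0.27, PAU5 at 0.23 and PAU10 at 0.21. PAU1, PAU6, PAU13, PAU17 and PAU19, 5 of the 21, were above 0 on every replicate with a value, against 0.798% of all genes. PAU1 and PAU6 had 9 values, while PAU13, PAU17 and PAU19 had 7. The share over all genes likewise mixes genes with different numbers of values. The other tested PAU genes were PAU23 at 0.26, PAU15 at 0.25, PAU18 at 0.22, PAU2 and PAU7 at 0.16, PAU16 and PAU20 at 0.13, PAU11 at 0.12, PAU12 at 0.11, PAU8 at 0.10 and PAU22 at 0.05. The 95% intervals of the PAU genes other than PAU14 reached up to 0.66, a 1.58-fold difference, and down to -0.29. PAU3 and PAU4 had too few values for the test: PAU3 lay between 0.21 and 0.38 on 4 arrays, all above 0, and PAU4 between -0.59 and 0.55 on 5 replicates.

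**Figure D2:**
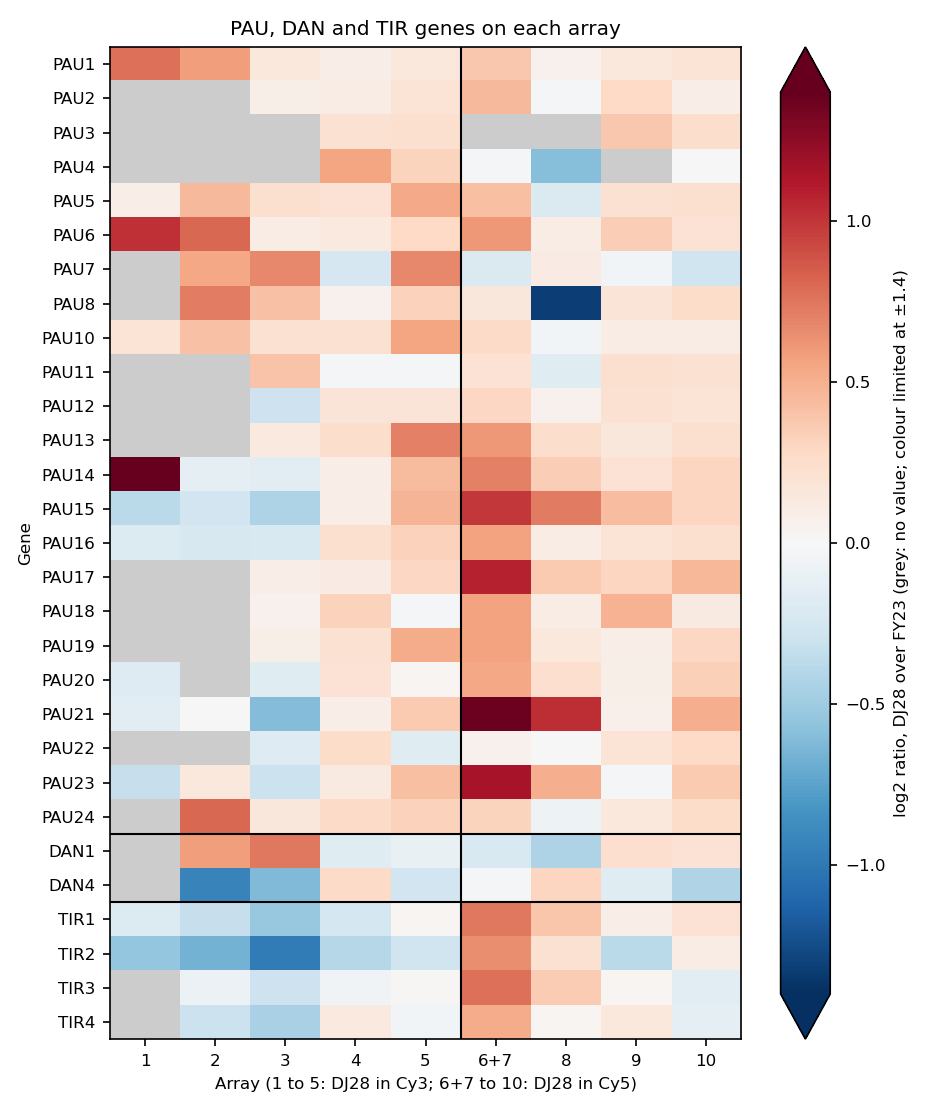
Centred log2 ratio of DJ28 over FY23 (colour, limited at ±1.4) for the 29 genes (rows) on the 9 replicates (columns), with DJ28 in Cy3 left of the line and DJ28 in Cy5 right of it; grey cells have no value. PAU rows are mostly red on both sides, and TIR rows are mostly blue on arrays 1 to 5 and red on arrays 6 and 7.

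On most arrays the PAU genes lay close together. The middle 50% of the PAU values spanned 0.123 on array 9, where it spanned 0.567 for all genes, 0.106 on array 10 against 0.417, and 0.124 on array 4 against 0.430. On arrays 3, 5 and 8 and the mean of arrays 6 and 7 it spanned 0.273 to 0.347, against 0.487 to 0.884. The PAU span was the narrower on 8 of 9 replicates, the exception being array 1, with 10 PAU values and a span of 0.813 against 0.661. On the other sparse array, array 2, with 12 PAU values, the spans were nearly equal, at 0.643 against 0.658. How much of this closeness comes from spots that bind several PAU messenger RNAs was not tested.

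The DAN genes lay on opposite sides of 0. DAN1 (YJR150C), which encodes a wall mannoprotein made in anaerobic cells and repressed in aerobic ones, had ratios of 0.59, 0.73, -0.17 and -0.11 on arrays 2 to 5 and of -0.21, -0.43, 0.23 and 0.20 on the replicates with DJ28 in Cy5. Values of both signs occurred in both orientations, and the difference was 0.10 ± 0.137 (SE; adjusted p = 0.755 in limma, 95% interval -0.20 to 0.41). Single arrays moved it between 0.025, without array 3, and 0.18, without array 4. DAN4 (YJR151C), the longest gene of the 3 families and likewise an anaerobic wall protein, had ratios of -0.94, -0.61, 0.27 and -0.27 on arrays 2 to 5 and of -0.03, 0.30, -0.17 and -0.43 on the replicates with DJ28 in Cy5. Its difference was -0.23 ± 0.142 (SE; adjusted p = 0.478 in limma), and it was below 0 on 6 of 8 replicates. Without array 2 it was -0.14. DAN1 and DAN4 are neighbours in the gene order of assembly R64.

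Each TIR gene had a dye effect estimated larger in absolute size than its strain difference, though the dye effects did not pass the test either. The dye effect was also the larger for DAN1, PAU7, PAU8, PAU15, PAU16, PAU20, PAU21 and PAU22, so this was not particular to TIR genes. Over all genes tested, dye effects had an SD of 0.30 and strain differences an SD of 0.24. TIR2 (YOR010C), a cold-shock mannoprotein gene, had ratios of -0.54, -0.67, -0.98, -0.40 and -0.28 on arrays 1 to 5 and of 0.66, 0.21, -0.38 and 0.11 on the replicates with DJ28 in Cy5. It was thus below 0 on every array with DJ28 in Cy3 and above 0 on 3 of the 4 replicates with the dyes swapped, and its difference was -0.21 ± 0.119 (SE; adjusted p = 0.446 in limma), or -0.13 without array 9. TIR1 (YER011W), also induced by cold and by lack of oxygen, had ratios of -0.19, -0.32, -0.54, -0.25 and 0.02 on arrays 1 to 5 and of 0.74, 0.38, 0.09 and 0.21 on the replicates with DJ28 in Cy5. Its difference was 0.05 ± 0.0994 (SE; adjusted p = 0.841 in limma), and between 0.016, without array 5, and 0.094, without array 9.

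TIR3 (YIL011W), which encodes a mannoprotein needed for anaerobic growth, had ratios of -0.08, -0.29, -0.05 and 0.01 on arrays 2 to 5 and of 0.77, 0.36, 0.03 and -0.16 on the replicates with DJ28 in Cy5, with a difference of 0.07 (standard error 0.118, limma adjusted p = 0.803), or 0.14 without array 10. TIR4 (YOR009W), the neighbour of TIR2 in the R64 gene order, had a difference of -0.01 ± 0.112 (SE). The 95% intervals of DAN1, TIR1, TIR3 and TIR4 reached up to 0.41, 0.27, 0.33 and 0.24 and so held the PAU median. Those of DAN4 and TIR2 ended at 0.079 and 0.047, below it, in the fit to all replicates. The PAU median itself varied over replicates (SD 0.18), and no gene was tested against the PAU genes.

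The dye effect, the part of a ratio that keeps its direction when the dyes are swapped, was estimated in the same fit as log2 Cy5 over Cy3. It was 0.36 for TIR2, 0.30 for TIR1, 0.40 for PAU21 and 0.36 for PAU15, and these 4 genes had unadjusted p-values from 0.0105 to 0.0172. After adjustment 0 of the 27 genes passed in limma's test (lowest adjusted p = 0.11), where 3.05% of all genes did. All 4 TIR genes had a positive dye effect, with a median of 0.24. Over all genes the median was -0.03, and 2501 of 5642 were above 0. The PAU genes had a median of 0.00 and ranged from -0.28 for PAU8 to 0.40 for PAU21.

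The PAU genes were also divided by the length of the coding sequence, a grouping chosen after the values were seen and given with no test. The 12 tested PAU genes of 363 coding bases in the R64 gene table had a median dye effect of -0.05, with 4 above 0. The 8 longer ones, of 369 to 495 bases, had a median of 0.17, with 7 above 0. Over all genes 2501 of 5642 dye effects were above 0. PAU7, listed at 168 bases, had a dye effect of -0.26. The median strain difference was 0.22 for the shorter and 0.26 for the longer genes.

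**Figure D3:**
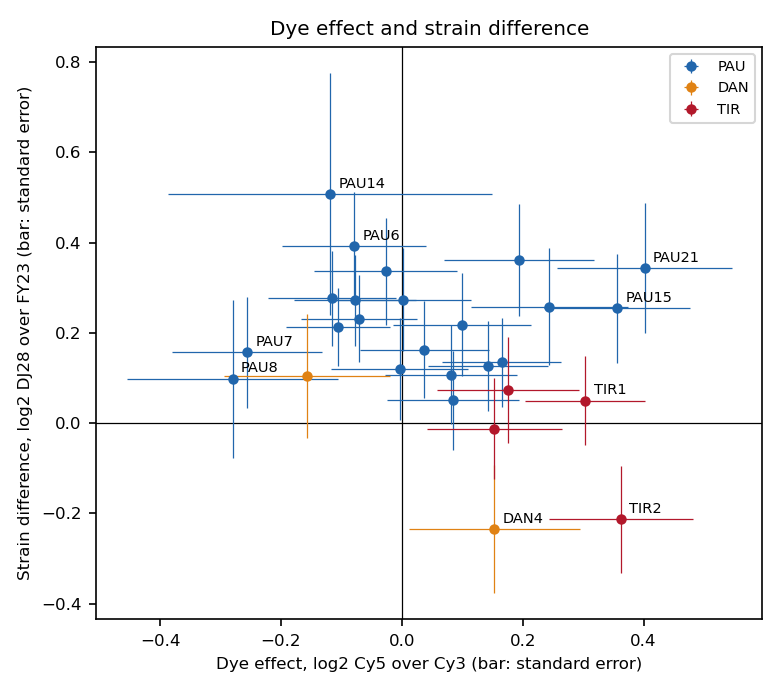
Dye effect (x axis, log2 Cy5 over Cy3) and strain difference (y axis, log2 DJ28 over FY23) of the 27 genes tested, with standard errors as bars. The TIR genes lie to the right, at dye effects from 0.15 to 0.36, and the PAU genes lie above 0 on the strain axis over the whole range of dye effects.

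PAU genes were then set against DAN and TIR genes on each replicate, as a description with no test. The PAU median was -0.03, 0.43, 0.09, 0.14 and 0.33 on arrays 1 to 5 and 0.54, 0.10, 0.19 and 0.22 on the replicates with DJ28 in Cy5. It was above 0 on 8 of 9 replicates, averaged 0.22 ± 0.18 (SD, n = 9), and lay below 0 on array 1, which held 10 PAU values. The median of the DAN and TIR genes was -0.36, -0.31, -0.50, -0.11 and -0.07 on arrays 1 to 5 and 0.59, 0.25, 0.06 and -0.01 on the replicates with DJ28 in Cy5, so it was below 0 on all 5 arrays with DJ28 in Cy3 and above 0 on 3 of the 4 other replicates.

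The gap between the families was wider in 1 orientation, a difference that was not tested. In the fit such a change with orientation falls in the dye term. The median dye effect was 0.00 for the PAU genes and 0.16 for the DAN and TIR genes. PAU minus DAN and TIR averaged 0.46 ± 0.20 (SD, n = 5) on the arrays with DJ28 in Cy3 and 0.04 ± 0.17 (SD, n = 4) on the replicates with DJ28 in Cy5. It was positive on 7 of 9 replicates, the exceptions being the mean of arrays 6 and 7, at -0.05, and array 8, at -0.15. In the fit with a dye term the PAU median exceeded the DAN and TIR median by 0.21, and by 0.16 with PAU23 and PAU24 counted as DAN genes.

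**Figure D4:**
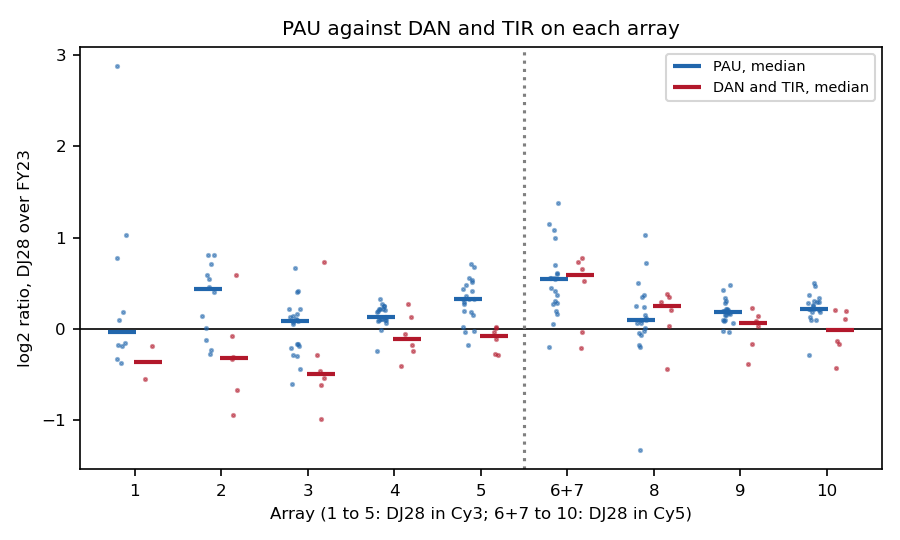
Centred log2 ratio of DJ28 over FY23 (y axis) on each replicate (x axis) for the tested PAU genes (blue points) and DAN and TIR genes (red points), with the median of each family as a bar. The PAU median lies above that of DAN and TIR on arrays 1 to 5, 9 and 10 and below it on the mean of arrays 6 and 7 and on array 8.

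Arrays 4, 5, 9 and 10 each held cells at the ceiling of the scale, 3 or 4 an array, and tended to be empty for the same rows (correlation of empty cells 0.381 to 0.503 between pairs of these arrays, 0.084 to 0.254 in pairs with another array), though no label calls them a batch. For this set and for the remaining arrays 2 replicate values in each orientation were enough, so PAU3 entered here. On these arrays alone 22 of 22 PAU genes with enough values were above 0, where 50.2% of all genes were, with a median of 0.24. On the remaining arrays 12 of 13 were, where 60.8% of all genes were, with a median of 0.28. The DAN and TIR medians were -0.01 and 0.03 in these sets. Within 1 dye orientation the dye effect is not removed: with DJ28 in Cy3 alone 16 of 21 PAU genes were above 0 (53.3% of all genes) at a median of 0.17, and with DJ28 in Cy5 alone 19 of 22 (48.0% of all genes) at a median of 0.23. The DAN and TIR medians were -0.21 and 0.14 in these orientations.

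Position near a chromosome end is shared by most PAU genes. In the R64 gene order 18 of the 23 lie within the 10 outermost protein-coding genes at a chromosome end. The 16 tested ones had a median difference of 0.24, and the 5 tested ones further in (PAU2, PAU5, PAU7, PAU17 and PAU23) had 0.23. The COS genes, another family of closely related genes near chromosome ends, had a median of 0.21. Of 10 tested, 9 were above 0 (56.1% of all genes), 0 passed limma's test (0.549% of all genes) and 3 were higher at an unadjusted p under 0.05 (5.96% of all genes). The largest were COS4 at 0.31 and COS8 at 0.26. The remaining 233 outermost genes, a set chosen after the values were seen, had a median of -0.01. Of these, 109 were above 0 (56.1% of all genes) and 4 passed limma's test (0.549% of all genes).

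The shares of all genes just given hold for the following lists too, with 7.39% of all genes lower at an unadjusted p under 0.05. Regulators of anaerobic and cold transcription gave no difference past the test, at 0 of 9 tested, with a median of -0.07 and 4 above 0. The largest were MOT3, a repressor of anaerobic genes, at -0.27 (limma adjusted p = 0.4) and UPC2 at -0.22 (limma adjusted p = 0.439). At an unadjusted p under 0.05, 0 of these 9 genes were higher or lower. Anaerobic genes outside the wall families had a median of 0.11, with 8 of 10 above 0 and 0 past limma's test, but the median was -0.087 on arrays 4, 5, 9 and 10 and 0.28 on the remaining arrays. ANB1, the anaerobic copy of translation factor eIF5A, was at 0.39 and FET4, a low-affinity iron transporter, at 0.33, both with unadjusted p under 0.05 on the higher side. AUS1, a sterol importer, was at -0.28 and the only 1 of this list that was lower at an unadjusted p under 0.05.

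ANB1 has a close paralog, its aerobic copy HYP2, which was at 0.39 as well. How far their spots bind each other's messenger RNA was not tested, so both values are uncertain. Of the 9 aerobic counterparts 0 passed limma's test, with 7 above 0, a median of 0.10 and HMG1, an enzyme of sterol synthesis, the lowest at -0.29. At an unadjusted p under 0.05, 1 of them, HYP2, was higher and 1, HMG1, was lower. Other wall mannoproteins had 0 of 12 past limma's test, 6 above 0 and a median of 0.03, which was -0.26 with DJ28 in Cy3 alone and 0.30 with DJ28 in Cy5 alone. CCW12, an abundant wall protein, was at 0.34 and alone reached an unadjusted p under 0.05, and SED1, a wall protein of stationary cells, was at -0.26. CWP1 and CWP2, which DAN and TIR proteins replace without oxygen, were at 0.10 and 0.20.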

How the data were processed

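The deposited table holds 1 value per row and array, taken to be a log2 ratio between both dyes. Its unit was taken from the values, which are signed and reach an upper limit of 16.61. The log base, the numerator dye, the background correction, the normalization by the authors and the filter behind empty cells are not given in the sources used. All 10 columns of values were used. Arrays were grouped by dye orientation, per the labels.

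Rows were named through the platform annotation, in which 5663 of 6277 rows have 1 gene symbol and the rest are unnamed here, and symbols were updated through gene identifiers in the R64 gene table. That table gave names, coding lengths and gene order. No coordinates or sequences are given.

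Values at that limit were left out, arrays were centred on their medians, rows of a gene were averaged, and arrays 6 and 7 were averaged. Genes with at least 3 replicate values in each orientation (5642) entered a fit in limma 3.58.1 (lmFit and eBayes, R 4.3.3) with a dye term and a strain term. P-values are two-sided and adjusted by the Benjamini-Hochberg method. The steps were tested on simulated data. The effect of 26 alternative settings is given in the closing section.

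The genes, lists and tests were chosen with earlier results of these data known, so families and lists have counts and medians only. Values per array are given for the 4 PAU, both DAN and the 3 TIR genes with the largest absolute differences. Of each list, genes past the test and the 2 largest are named, with fitted differences only. AUS1, CWP1 and CWP2 were named after their values were seen.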

Additional observations from a re-analysis of the deposited data

Results flagged for a closer look

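Of 56 groups of 4 or 5 values, each a gene or family median within 1 dye orientation, 4 had a value far from the others. Chance gives about 1 such group in 20. With DJ28 in Cy5, PAU8 had a ratio of -1.32 on array 8 and the next lowest was 0.16, and its difference was 0.29 without that array, against 0.10 with it. PAU11 had -0.17 on array 8 in the same orientation, where the next lowest was 0.20. With DJ28 in Cy3, PAU14 had 2.87 on the sparse array 1 and the next highest was 0.44. PAU7 had -0.24 on array 4, where the next lowest was 0.55, and its difference was 0.27 without that array, against 0.16 with it. The causes were not tested.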

How the results depend on the processing

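Over 26 alternatives to the arrays, scaling, filters and fit, 0 of 670 fits of a member passed the strain test (lowest limma adjusted p = 0.0854, PAU6 with all 10 arrays counted apart, from 0.0854 to 0.984 over its alternatives). The PAU median stayed between 0.17 and 0.30. PAU minus DAN and TIR stayed between 0.09, with only DJ28 in Cy5, and 0.38, with only DJ28 in Cy3. In the 5 other lists 0 genes passed under any alternative. Their medians ran from 0.14 to 0.29 for COS genes, -0.19 to -0.0087 for regulators, -0.087 (arrays 4, 5, 9 and 10) to 0.28 (remaining arrays) for anaerobic genes, -0.084 (only DJ28 in Cy3) to 0.17 (remaining arrays) for aerobic counterparts and -0.26 (only DJ28 in Cy3) to 0.30 (only DJ28 in Cy5) for other wall mannoproteins. The 9 PAU genes at an unadjusted p under 0.05 ranged from 0 to 13: 13 with all 10 arrays counted apart, 11 with scaled arrays and with a dye effect in each array set, 0 without centring, 2 with only DJ28 in Cy3, 5 with only DJ28 in Cy5, 3 of 13 on the remaining arrays, 4 without arrays 6 and 7, 5 without arrays 1 and 2, 5 without array 2 and 3 of 13 without array 5. Without array 3, 4 or 5 only 13 PAU genes had enough values, and all 13 were above 0. The count past the dye test was 0 in the report, 3 with all 10 arrays counted apart, 3 of 19 on the remaining arrays, 18 without centring, which by construction leaves array offsets in the dye term, and 0 to 1 with single arrays left out (1 without array 5).

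Of the 27 genes 14 had a value of opposite sign under some alternative. TIR4 was 0.026 with all 10 arrays counted apart, 0.010 without centring, 0.14 with only DJ28 in Cy5, 0.027 with arrays 4, 5, 9 and 10, 0.010 without arrays 1 and 2, and between -0.062 and 0.036 with single arrays left out. Without centring PAU11 was -0.041, PAU12 -0.054 and PAU22 -0.11. With array weights TIR1 was -0.000157 and TIR3 -0.032. With only DJ28 in Cy3 TIR1 was -0.25, TIR3 -0.10, PAU15 -0.10, PAU16 -0.017, PAU20 -0.030, PAU21 -0.058 and PAU22 -0.035. With only DJ28 in Cy5 PAU8 was -0.18, PAU7 -0.099, DAN1 -0.053 and TIR2 0.15. TIR3 was -0.043 with arrays 4, 5, 9 and 10, and PAU8 was -0.0086 on the remaining arrays. Without arrays 6 and 7 TIR1 was -0.013 and TIR3 -0.014. The causes were not tested. Each ratio compares both strains on the same array. Arrays of opposite dye orientation could not be paired with each other, because array numbers do not repeat between the orientations. The files give no spot intensities, so signal over background is unknown.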
